A study of Rattus norvegicus with 10 samples.

Results

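The genes described here encode 10 proteins of the intercalated disc, the junction that joins heart muscle cells end to end: the connexins Gja1, Gja5 and Gjc1, the desmosomal genes Dsp, Pkp2, Jup, Dsg2 and Dsc2, the cadherin Cdh2 and the scaffold Tjp1. They were taken by gene symbol from the deposited expression table, in which all 10 were found among 18025 listed genes. All 10 also passed the filter on low values (a mean of at least 0.1 FPKM, fragments scaled to gene length and library size), as did 14542 genes in all. The values come from messenger RNA of wild-type Sprague-Dawley rat fetal hearts at embryonic day 19.5, with 5 libraries of the control group (CON) and 5 of the hyperglycemia group (HG). After mating with males that the series description calls normoglycemic, HG dams were injected with streptozotocin, which destroys pancreatic beta cells, in citric acid buffer on consecutive days, and CON dams received the buffer alone. The fetuses were thus exposed through the dam and not treated themselves. Fetal sex is not given in the labels. Nothing in the sources used here says that the 5 libraries of a group came from separate litters, so that p-values measure only the spread between these libraries.

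Gap junctions are channels built of connexins, through which the electrical impulse passes from cell to cell. Gja1 (connexin 43) is the main connexin of the working myocardium, Gja5 (connexin 40) belongs to atrial muscle, the fast conduction system and arterial endothelium, and Gjc1 (connexin 45) to the early heart and the nodes. Desmosomes hold the cells together mechanically: the cadherins Dsg2 and Dsc2 span the gap between neighbours, Jup (plakoglobin) and Pkp2 (plakophilin 2) bind their tails, and Dsp (desmoplakin) ties the complex to desmin filaments. Cdh2 (N-cadherin) forms the adherens junctions that anchor the myofibrils, and Tjp1 (ZO-1) is a scaffold that binds Gja1 at the rim of the gap junction.

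The start regions of Dsp and Dsg2 are shown because these genes had the largest decrease and the largest increase of the set. RefSeq (assembly GRCr8) gave a promoter for 7 of the 10 genes, Gja1, Gja5, Dsp, Jup, Dsg2, Dsc2 and Tjp1. Each sequence runs 5′ to 3′ over the 250 bases before the annotated start, at chr17:26877122-26877371 on the minus strand for Dsp and at chr18:12121037-12121286 on the plus strand for Dsg2. Capitals mark the GC box GGGCGG on either strand.
Dsp: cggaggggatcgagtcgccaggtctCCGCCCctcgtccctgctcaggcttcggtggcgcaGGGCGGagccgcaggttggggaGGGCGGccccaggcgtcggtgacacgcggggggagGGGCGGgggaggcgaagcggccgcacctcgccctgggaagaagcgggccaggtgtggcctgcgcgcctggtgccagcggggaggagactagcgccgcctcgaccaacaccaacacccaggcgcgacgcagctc
Dsg2: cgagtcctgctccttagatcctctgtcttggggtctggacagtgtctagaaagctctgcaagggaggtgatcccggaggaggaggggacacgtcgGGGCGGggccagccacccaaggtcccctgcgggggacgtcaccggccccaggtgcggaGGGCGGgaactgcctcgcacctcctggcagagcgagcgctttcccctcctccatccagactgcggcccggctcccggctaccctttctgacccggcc
The window of Dsp held 4 GC boxes and that of Dsg2 held 2, where 30.5% of all 33469 promoter windows held at least 1. Neither window held the letters CCAAT (found in 34.0% of windows on either strand) or TATAAA (12.9%), of which CCAAT can share its outer letters with a GC box. G and C made up 75.2% of the Dsp window and 68.4% of the Dsg2 window, against a median of 51.2% over all windows. Both starts were rich in G and C, as were those of Jup (68.8%, 1 GC box) and Dsc2 (64.4%, 2 GC boxes), which did not pass the test, so that this feature was not particular to the genes that changed. In the same annotation Dsc2 and Dsg2 stand in 1 cluster of desmosomal cadherins, with Dsc1, Dsg1, Dsg4 and Dsg3 between them. These 4 skin-type cadherins were at 0.0442 FPKM or less in every library, against at least 6.93 FPKM for Dsc2 and 17.9 FPKM for Dsg2.

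Reads on genes numbered 17639895 to 18240006 in CON libraries and 16672876 to 19109844 in HG libraries. Each library gave between 569 reads (Dsc2) and 17659 reads (Dsp) for a gene of the set. Counting error was thus at most 4.19% of a value, and the coefficient of variation between libraries of a group ran from 2.56% (Gja1, CON) to 16.2% (Gja5, CON). The heart label held against the markers, since Tnnt2, a troponin of the sarcomere, was between 3093 and 4058 FPKM. CON replicate 3 stood apart with liver messages. The 7 liver genes examined summed to 80.7 FPKM there, to 3.15 to 8.73 FPKM in the other CON libraries and to 1.32 to 2.71 FPKM in HG libraries.

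Between the groups, Dsp and Pkp2 fell in HG hearts and Dsg2 rose, and the other 7 genes did not pass the test. The changes were moderate: Dsp fell by 20.9%, Pkp2 fell by 15.5% and Dsg2 rose by 29.5%. All 3 are desmosomal, and on the deposited scale none of the 3 connexins, nor Cdh2 or Tjp1, changed by the test. Under other scalings of the libraries Gja1 or Cdh2 passed, as given below. With limma and Benjamini-Hochberg adjustment over all 14542 genes, 1 gene of the 10 was higher and 2 were lower at an adjusted p under 0.05. Over all genes tested 28.4% were higher and 11.8% lower, together 40.1%, so that 3 of 10 was not a share above that of all genes. The study's stricter definition, which adds a fold change beyond 2, was met by 0 of the 10 genes and by 1.94% of all genes. Unadjusted, 6 of the 10 genes and 48.5% of all genes had a p under 0.05. The median log2 fold change, HG minus CON, was 0.00 for the 10 genes and 0.09 for all genes.

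Dsp, the linker to the intermediate filaments, measured 93.8, 100.1, 91.0, 100.9 and 98.6 FPKM in CON replicates 1 to 5 and 71.6, 75.8, 78.3, 77.6 and 79.8 FPKM in HG replicates 1 to 5. Every HG library lay below every CON library, with a gap of more than 10 FPKM between the groups. This gave a log2 fold change of −0.34 (SE 0.0406, adjusted p = 6.46e-05), with a 95% confidence interval of −0.43 to −0.25.

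Pkp2, the armadillo protein that recruits Dsp to the membrane, measured 70.9, 66.5, 69.8, 64.5 and 64.2 FPKM in the CON libraries and 55.0, 57.0, 54.0, 57.6 and 60.0 FPKM in the HG libraries. Again the groups did not overlap. Its log2 fold change was −0.24 (SE 0.0412, adjusted p = 0.000663). Across all genes tested, 8.12% had every HG library below every CON library.

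Jup, the armadillo protein shared by desmosomes and adherens junctions, was more variable. It measured 89.5, 74.5, 98.6, 92.0 and 88.1 FPKM in the CON libraries and 74.5, 84.3, 74.6, 88.7 and 70.4 FPKM in the HG libraries. The ranges overlapped because CON replicate 2 was as low as the lower HG libraries, while HG replicate 4 reached the level of the other CON libraries. Its log2 fold change of −0.17 (SE 0.0780) had an adjusted p of 0.0965. Without CON replicate 2 the adjusted p was 0.0170 and without HG replicate 4 it was 0.0413. It rose to 0.211 without CON replicate 3.

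Dsg2, the desmoglein of heart muscle, went the other way. It measured 18.6, 19.3, 17.9, 19.3 and 18.3 FPKM in the CON libraries and 22.5, 23.6, 24.9, 24.0 and 26.1 FPKM in the HG libraries. All 5 HG libraries lay above all 5 CON libraries, an order that 19.3% of all genes tested had. For Dsg2 the log2 fold change was 0.37 (SE 0.0449, adjusted p = 6.58e-05), with a 95% confidence interval of 0.27 to 0.47.

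Dsc2, the desmocollin that pairs with Dsg2, was with Gjc1 the lowest of the 10 genes. It measured 7.50, 7.14, 7.26, 7.59 and 6.93 FPKM in the CON libraries and 8.20, 7.05, 8.13, 8.46 and 8.43 FPKM in the HG libraries. Of the HG libraries 4 lay above all CON libraries, and replicate 2 lay within the CON range. Its log2 fold change of 0.14 (SE 0.0592) had an adjusted p of 0.0769. With single libraries left out, this ran from 0.0124 (without HG replicate 2) to 0.152 (without CON replicate 5).

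**Figure D1:**
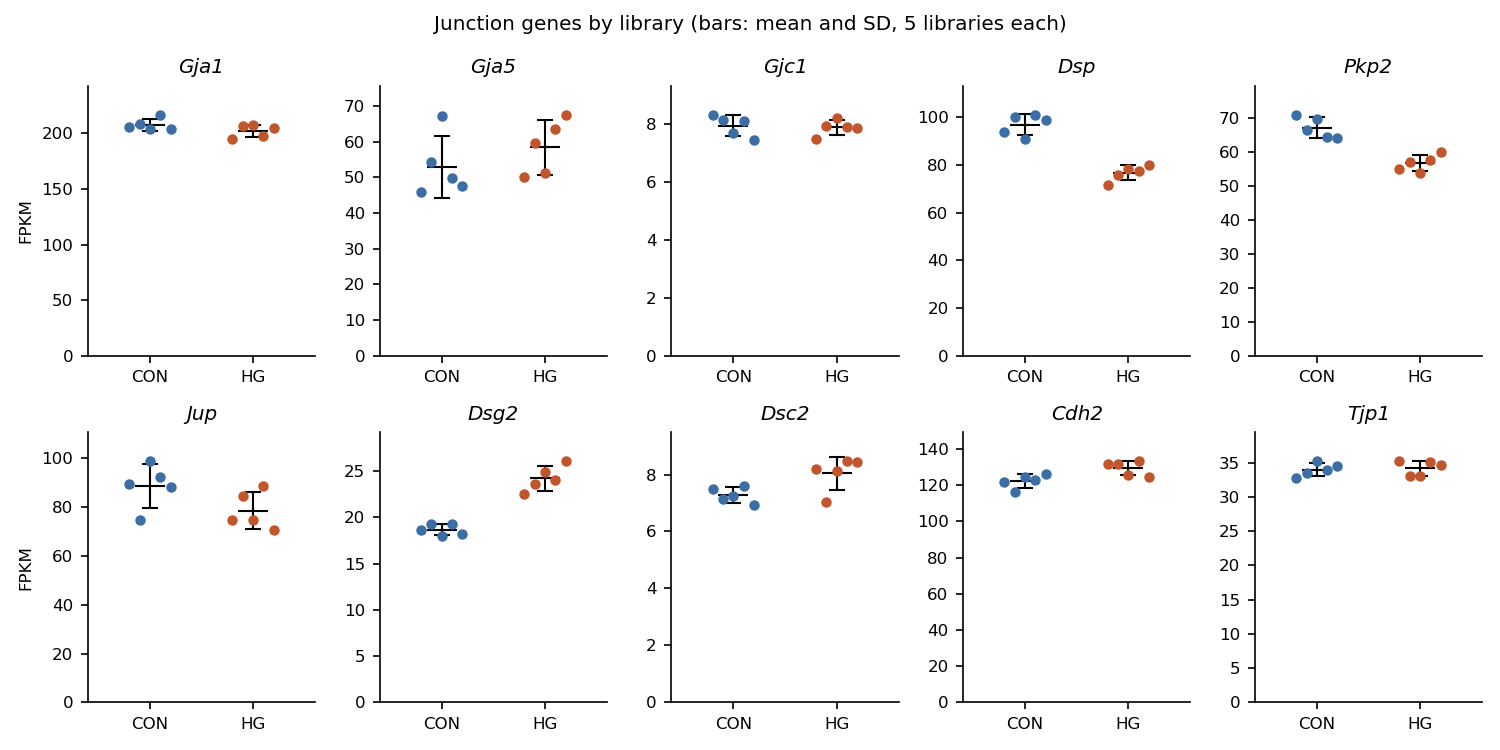
FPKM of the 10 junction genes in each library (points), with the mean and SD of the 5 CON and the 5 HG libraries (black bars) and every axis starting at 0. The groups separate for Dsp, Pkp2 and Dsg2, and overlap for the other 7 genes, with a single low HG library for Dsc2 and a single high CON library for Gja5.

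None of the connexins passed the test on the deposited scale, and their sum differed between the groups by less than its spread. Gja1 measured 205.4, 208.7, 203.7, 216.6 and 204.3 FPKM in the CON libraries and 195.4, 207.0, 207.1, 197.4 and 205.0 FPKM in the HG libraries. HG replicates 1 and 4 were below the CON range and the other HG libraries were inside it. Its log2 fold change was −0.04 (SE 0.0320, adjusted p = 0.378), with a 95% confidence interval of −0.11 to 0.03, or of 0.928-fold to 1.02-fold.

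Gja5 was the most variable gene of the set. It measured 45.8, 54.2, 67.1, 49.7 and 47.5 FPKM in the CON libraries and 50.1, 59.7, 51.1, 63.6 and 67.5 FPKM in the HG libraries. The high CON library was replicate 3, and the high HG libraries were replicates 4 and 5. For Gja5 the log2 fold change of 0.15 (SE 0.108, 95% confidence interval −0.09 to 0.38) had an adjusted p of 0.304. Without CON replicate 3 it was 0.24 with an adjusted p of 0.0582, and without HG replicate 5 it was 0.09 with an adjusted p of 0.542. CON replicate 3 also had the highest values of all CON libraries for the atrial messages Myl7 (1066 FPKM, against 602.7 to 803.7 FPKM in the others) and Sln (12.7 FPKM, against 0.929 to 3.90 FPKM). The 8 atrial markers together summed to 4130 FPKM in that library and to 2810 to 3554 FPKM in the other CON libraries. In HG libraries they summed to 3790 to 5308 FPKM. Of the 8, 3 were higher in HG and 0 lower, against 28.4% and 11.8% of all genes tested. Nppa (ANP), which the study counts as a myocardial injury marker, averaged 1733 FPKM in CON and 2855 FPKM in HG libraries. Bmp10, with means of 15.82 FPKM in CON and 30.55 FPKM in HG, and Nr2f2, with 5.27 and 6.51 FPKM, were also higher (limma, adjusted p = 0.000298 and 0.00496). Myl7, with means of 789.5 and 759.3 FPKM, and Sln, with 4.13 and 1.69 FPKM, were not called (limma, adjusted p = 0.801 and 0.390). Whether the atrial share of the tissue had a part in the Gja5 values was not tested. In a tissue, fewer cells of a type and less RNA per cell cannot be told apart. The labels name heart tissue, whereas the study in 1 place names isolated cardiomyocytes for the comparison. Red cell, fibroblast and endothelial messages were read in every library.

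Gjc1, the low-abundance connexin, measured 8.31, 8.15, 7.70, 8.11 and 7.45 FPKM in the CON libraries and 7.50, 7.94, 8.20, 7.90 and 7.88 FPKM in the HG libraries. All 5 HG libraries lay inside the CON range. The log2 fold change was −0.01 (SE 0.0493, adjusted p = 0.887), with a 95% confidence interval of −0.12 to 0.10.

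Cdh2, the second most abundant gene of the set, measured 121.7, 116.3, 124.4, 122.7 and 126.4 FPKM in the CON libraries and 131.9, 131.7, 125.6, 133.2 and 124.7 FPKM in the HG libraries. Of the HG libraries 3 lay above the CON range. The log2 fold change of 0.08 (SE 0.0340) had an adjusted p of 0.0747. With single libraries left out, this ran from 0.0498 (without HG replicate 5) to 0.163 (without CON replicate 2).

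Tjp1 had the log2 fold change nearest to 0. It measured 32.7, 33.6, 35.2, 33.9 and 34.6 FPKM in the CON libraries and 35.2, 33.0, 33.1, 35.0 and 34.6 FPKM in the HG libraries. All HG libraries lay inside the CON range. The log2 fold change was 0.01 (SE 0.0354, adjusted p = 0.883), with a 95% confidence interval of −0.07 to 0.08. In the RefSeq annotation Tjp1 overlaps 3 other genes, Pkp2 overlaps 2, and Jup and Dsg2 overlap 1 each, none of them listed in the deposited table. Whether the counting used strand is not given in the sources used here, so that reads of such neighbours cannot be told apart from reads of these 4 genes.

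Which of the genes with small changes were called depended on how libraries were scaled. The 10 red cell genes summed to 10300 to 19490 FPKM in CON libraries and to 8168 to 11520 FPKM in HG libraries. The median of all genes was shifted by 0.09 on the log2 scale, and by 0.12 with the hemoglobin genes left out. With a median-of-ratios factor for each library this shift was 0.01, and 15.6% of all genes were higher and 17.5% lower. Higher genes were 70.7% of all calls as deposited and 75.0% with the hemoglobin genes left out. They were 47.1% with median-of-ratios factors and 53.0% with quantile normalization.

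Dsp, Pkp2 and Dsg2 kept their call and their direction under each of these scalings. With median-of-ratios factors the log2 fold change was −0.43 for Dsp (adjusted p = 8.07e-06), −0.33 for Pkp2 (adjusted p = 0.000106) and 0.28 for Dsg2 (adjusted p = 0.000259). Under that scaling Jup, at −0.26, and Gja1, at −0.13, also passed the test (adjusted p = 0.0299 and 0.00843). Gja1 was on the other side of 0 with quantile normalization, at 0.04 (adjusted p = 0.456). Cdh2 was at −0.01 with median-of-ratios factors (adjusted p = 0.883) and at 0.10 with the hemoglobin genes left out (adjusted p = 0.0268), where Dsc2, at 0.16, passed as well (adjusted p = 0.0444).

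**Figure D2:**
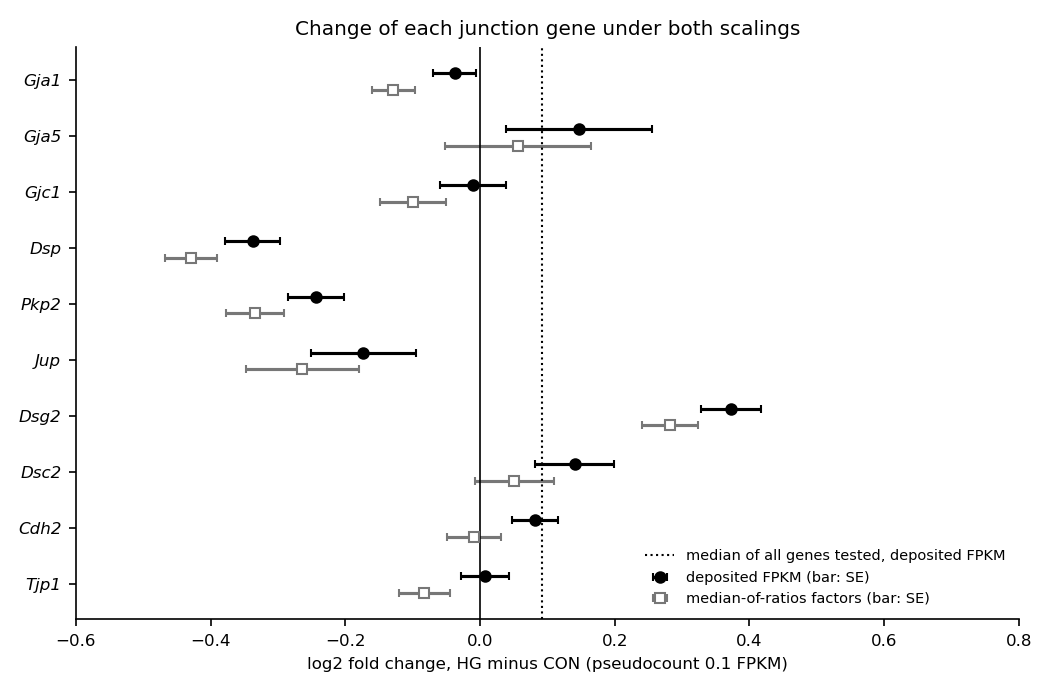
Log2 fold change (HG minus CON) of each junction gene with the deposited FPKM (black circles) and after median-of-ratios scaling (grey squares), with SE as bars and the median of all genes, 0.09, as a dotted line. Dsp, Pkp2 and Jup lie to the left and Dsg2 to the right of 0 under both scalings, while Cdh2 and Tjp1 change side.

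FPKM is per length, so that levels can be set beside each other. In CON hearts Gja1 was highest with a mean of 207.7 ± 5.32 FPKM (SD, n = 5), followed by Cdh2 with 122.3 ± 3.81 FPKM, Dsp with 96.9 ± 4.27 FPKM and Jup with 88.5 ± 8.85 FPKM. Next came Pkp2 with 67.2 ± 3.07 FPKM, Gja5 with 52.9 ± 8.57 FPKM, Tjp1 with 34.0 ± 0.936 FPKM and Dsg2 with 18.7 ± 0.596 FPKM. Gjc1 and Dsc2 were lowest, with 7.95 ± 0.359 and 7.28 ± 0.268 FPKM. The ranges over libraries overlapped between Dsp and Jup, between Pkp2 and Gja5 and between Gjc1 and Dsc2, so that these neighbours were not ordered beyond their spread. In HG hearts the same 3 pairs overlapped, each with its means in the reverse order: Jup was at 78.5 ± 7.66 and Dsp at 76.6 ± 3.12 FPKM, Gja5 at 58.4 ± 7.64 and Pkp2 at 56.7 ± 2.35 FPKM, and Dsc2 at 8.05 ± 0.579 and Gjc1 at 7.88 ± 0.250 FPKM.

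The sum of the 3 connexins was 268.5 ± 8.77 FPKM in CON and 268.7 ± 10.3 FPKM in HG libraries (SD, n = 5 each). Gja1 made up 77.4 ± 2.54% of it in CON and 75.4 ± 2.12% in HG, and Gja5 made up 19.6 ± 2.65% and 21.7 ± 2.20%. These shares overlapped between the groups. The sum of the 5 desmosomal genes was 278.6 ± 7.12 FPKM in CON, from 267.4 to 284.6 FPKM, and 244.1 ± 9.08 FPKM in HG, from 231.9 to 256.3 FPKM. Within this sum Dsg2 made up 6.71 ± 0.326% in CON and 9.93 ± 0.561% in HG, without overlap. Dsp made up 34.8 ± 2.12% in CON and 31.4 ± 1.14% in HG, with overlapping ranges. On the deposited scale the summed FPKM of the 5 desmosomal genes was thus lower in HG, with a larger part of it from Dsg2. Such a sum depends on how libraries are scaled. These sums and shares were not tested.

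A ratio of 2 genes within a library does not depend on how the library is scaled. Of 6 ratios compared with two-sided exact permutation tests, 2 differed after Benjamini-Hochberg adjustment over the 6. The ratio of Dsp to Gja1 was 0.457, 0.479, 0.447, 0.466 and 0.482 in the CON libraries and 0.367, 0.366, 0.378, 0.393 and 0.389 in the HG libraries. It was lower in 5 of 5 HG libraries than in any CON library, by a log2 difference of −0.30 (exact p = 0.00794, the smallest that 5 against 5 can give, adjusted p = 0.0238). The ratio of Dsc2 to Dsg2, the partners in the desmosome, was 0.403, 0.371, 0.404, 0.394 and 0.380 in the CON libraries and 0.364, 0.299, 0.326, 0.352 and 0.324 in the HG libraries. The groups did not overlap here either, with a log2 difference of −0.23 (exact p = 0.00794, adjusted p = 0.0238). Dsg2 thus gained on its partner whatever the scaling of the libraries. The 6 pairs were chosen with earlier results of these data known. Dsp and Dsg2 had each separated between the groups by themselves, so that these 2 tests are not independent of the calls above. How often other pairs of genes separate was not computed.

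The ratio of Tjp1 to Cdh2 was 0.278 ± 0.00774 in CON and 0.264 ± 0.00960 in HG (log2 difference −0.07, exact p = 0.0397, adjusted p = 0.0794). It was below the CON range in 4 of 5 HG libraries. The ratio of Gja5 to Gja1 was 0.255 ± 0.0441 in CON and 0.289 ± 0.0373 in HG (log2 difference 0.19, exact p = 0.206, adjusted p = 0.310). Without CON replicate 3 the log2 difference was 0.28 (exact p = 0.0476, adjusted p = 0.0952), and without HG replicate 4 it was 0.14 (exact p = 0.365, adjusted p = 0.548). Neither the ratio of Gjc1 to Gja1 nor that of Pkp2 to Jup differed beyond the spread, with log2 differences of 0.03 (exact p = 0.389, adjusted p = 0.467) and −0.07 (exact p = 0.468, adjusted p = 0.468). The ratio of Pkp2 to Jup, which sit side by side in the desmosomal plaque, was 0.764 ± 0.0805 in CON and 0.728 ± 0.0784 in HG.

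**Figure D3:**
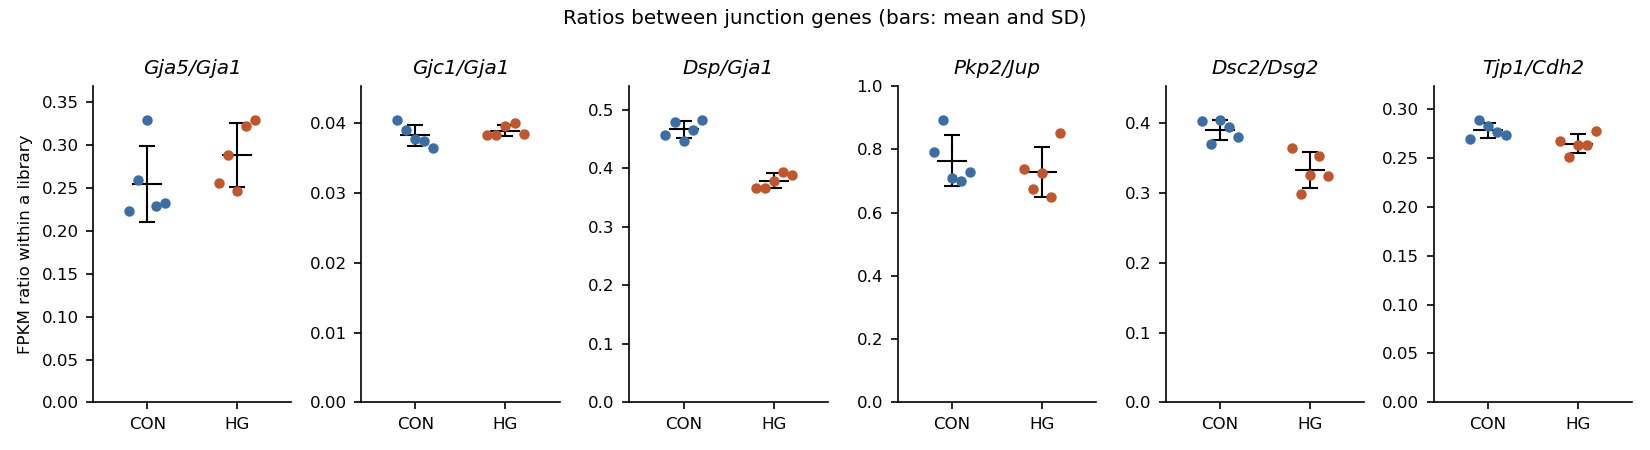
Ratio of FPKM values within each library (points) for 6 pairs of junction genes, with mean and SD of the 5 libraries of each group and every axis starting at 0. Dsp/Gja1 and Dsc2/Dsg2 are lower in all 5 HG libraries than in any CON library, and the other 4 ratios overlap.

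Set against other messages of the muscle cell, the set divided in another way. The 8 cardiomyocyte genes (Tnnt2, Tnnc1, Actc1, Ttn, Myl3, Actn2, Mybpc3 and Pln) were themselves lower in HG. By limma 7 of the 8 fell and 0 rose, where 11.8% of all genes tested were lower and 28.4% higher. Their mean log2 FPKM was 10.29 ± 0.0363 in CON and 9.98 ± 0.0277 in HG (difference −0.32, exact p = 0.00794). Relative to this mean, no difference between the groups was detected for Dsp, Pkp2 and Jup, with log2 differences of −0.02 (exact p = 0.643), 0.07 (exact p = 0.175) and 0.14 (exact p = 0.127). The log2 fold changes of Dsp and Pkp2 themselves, −0.34 and −0.24, lay on either side of that of the cardiomyocyte genes.

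The other 7 genes were higher relative to the cardiomyocyte genes. The log2 difference was 0.69 for Dsg2, 0.46 for Dsc2, 0.40 for Cdh2, 0.33 for Tjp1, 0.31 for Gjc1 and 0.28 for Gja1, each without overlap of the groups (exact p = 0.00794 for each), and 0.46 for Gja5, with overlap (exact p = 0.0238). These are unadjusted values from exact permutation tests of 10 genes. On this scale most of the transcriptome was higher: 57.5% of all genes tested had every HG library above every CON library and 1.74% had every HG library below, with a median log2 difference of 0.41. Gja1, Gjc1, Tjp1 and Cdh2 were below that median, Gja5 and Dsc2 slightly above it, and Dsg2 further above. With Tnnt2 alone as the reference the differences were 0.66 for Dsg2, 0.25 for Gja1 and −0.05 for Dsp. With Cdh2 as the reference, Dsp was at −0.42, Pkp2 at −0.33 and Dsg2 at 0.29 (exact p = 0.00794 for each). Jup was then at −0.26 (exact p = 0.0159), Gja1 at −0.12 (exact p = 0.0476) and Tjp1 at −0.07 (exact p = 0.0397). For these genes the groups overlapped, and the p-values are unadjusted. The Tjp1 value is the same comparison as the ratio of Tjp1 to Cdh2 above, which did not pass after adjustment (adjusted p = 0.0794). The differences of Gja1 and Tjp1 thus changed sign with the reference. Dsg2 was thus higher in HG against all 3 references. Dsp and Pkp2 were lower without overlap of the groups only against Cdh2, where Jup was lower with overlap. Cdh2 is itself among the 10 genes, and its own log2 fold change of 0.08 lowers the others on that scale. The share of all genes that separated against Tnnt2 or Cdh2 was not computed, so that these separations have no background beside them.

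**Figure D4:**
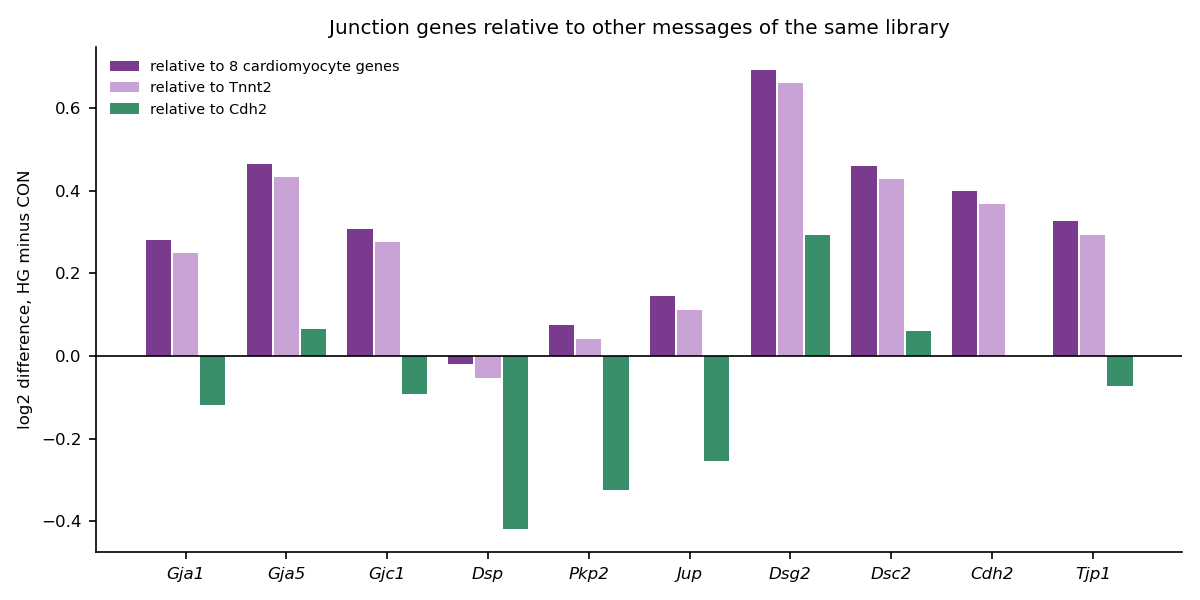
Difference between HG and CON of each junction gene's mean log2 FPKM after subtracting, in the same library, the mean log2 FPKM of 8 cardiomyocyte genes (dark purple), of Tnnt2 (light purple) or of Cdh2 (green, not defined for Cdh2 itself). Dsg2 is positive against each reference, and Dsp, Pkp2 and Jup are near 0 against the cardiomyocyte genes and negative against Cdh2.

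The wider families of these genes were examined in 5 lists. Their counts stand against 28.4% higher and 11.8% lower over all genes tested. Of the other connexins and pannexins 8 were tested, of which 1 was higher, 1 lower and 6 not called. Gja3 (connexin 46), best known from the lens, fell from 15.8 ± 1.63 to 10.6 ± 1.03 FPKM (a log2 fold change of −0.57, adjusted p = 0.000204). Panx1, a channel that releases ATP, rose from 1.74 ± 0.113 to 2.38 ± 0.315 FPKM (0.43, adjusted p = 0.00491). Gja4, the endothelial connexin 37, averaged 8.53 FPKM in CON hearts and 8.73 FPKM in HG hearts (adjusted p = 0.897). The median log2 fold change of the 8 genes was 0.02.

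Among the other desmosomal and desmin anchoring genes, 0 of 6 were higher and 2 were lower. Des (desmin), the filament that Dsp holds, fell from 600.1 ± 32.0 to 475.9 ± 37.2 FPKM (−0.34 on the log2 scale, adjusted p = 0.000625). Perp, a small membrane protein of desmosomes, fell from 86.5 ± 3.67 to 67.7 ± 4.87 FPKM (−0.36, adjusted p = 0.000207). Both log2 fold changes were close to that of Dsp, and the groups overlapped for neither gene. Dsg1, Dsg3, Dsg4, Dsc1 and Evpl, which are epithelial, were below the filter. The median over the 6 genes was −0.25.

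The catenins and adherens junction partners changed in both directions, with 5 higher, 7 lower and 5 not called of 17. Among the decreases were actin-binding proteins of striated muscle. Xirp2 fell from 1.27 ± 0.387 to 0.318 ± 0.0396 FPKM (−1.66 on the log2 scale, adjusted p = 7.19e-05). On the fitted scale, log2(FPKM + 0.1), Xirp2 was the only tested gene of the 5 lists with a fold change beyond 2. Nrap, which links Cdh2 complexes to the thin filaments, fell from 47.5 ± 3.46 to 29.1 ± 2.52 FPKM (−0.71, adjusted p = 9.97e-06). The largest increases were in the nectin system, a second set of adhesion molecules. Nectin2 rose from 21.5 ± 1.32 to 29.9 ± 1.72 FPKM (0.47, adjusted p = 3.82e-05), and its cytoplasmic partner Afdn (afadin) from 12.1 ± 0.960 to 15.3 ± 0.721 FPKM (0.33, adjusted p = 0.000897). Nectin1 passed as well at 0.31 (adjusted p = 0.0379), but not with median-of-ratios factors (adjusted p = 0.135). The median over the 17 genes was −0.07, and 2 were higher and 9 lower with median-of-ratios factors.

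Of 18 disc scaffolds and channel anchors, 4 were higher, 4 lower and 10 not called. Cxadr, an adhesion receptor of the disc, was called at 0.21 on the log2 scale (adjusted p = 0.00613) and Tjp3 (ZO-3), under 1 FPKM in both groups, at 0.65 (adjusted p = 0.0463), but neither with median-of-ratios factors, where the adjusted p was 0.124 and 0.0737. Fhl2 and Actn2, both proteins of the Z-disc and its neighbourhood, fell by 0.40 and 0.31 on the log2 scale (adjusted p = 8.97e-05 and 0.000318). The median over the 18 genes was 0.01, and 1 was higher and 7 lower with median-of-ratios factors.

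Of 12 transcription factors listed as regulators of connexin genes or of the conduction system, 3 were higher, 2 lower and 7 not called. Tbx18, of the epicardium and the sinus horns, rose by 0.52 on the log2 scale (adjusted p = 0.00210), and Gata4 by 0.26 (adjusted p = 0.000214). Tbx5, an activator of Gja5, ranged from 5.15 to 7.11 FPKM in CON libraries and from 6.17 to 8.37 FPKM in HG libraries (0.28, adjusted p = 0.0316), a call not made with median-of-ratios factors (adjusted p = 0.140). Tbx2, a repressor of Gja1 and Gja5 in the atrioventricular canal, fell by 0.49 on that scale (adjusted p = 0.000405) and Klf15 by 0.57 (adjusted p = 0.000183). Nkx2-5, with means of 96.3 FPKM in CON hearts and 88.6 FPKM in HG hearts, did not pass (adjusted p = 0.230). The median over the 12 genes was −0.02, and 2 were higher and 3 lower with median-of-ratios factors.

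**Figure D5:**
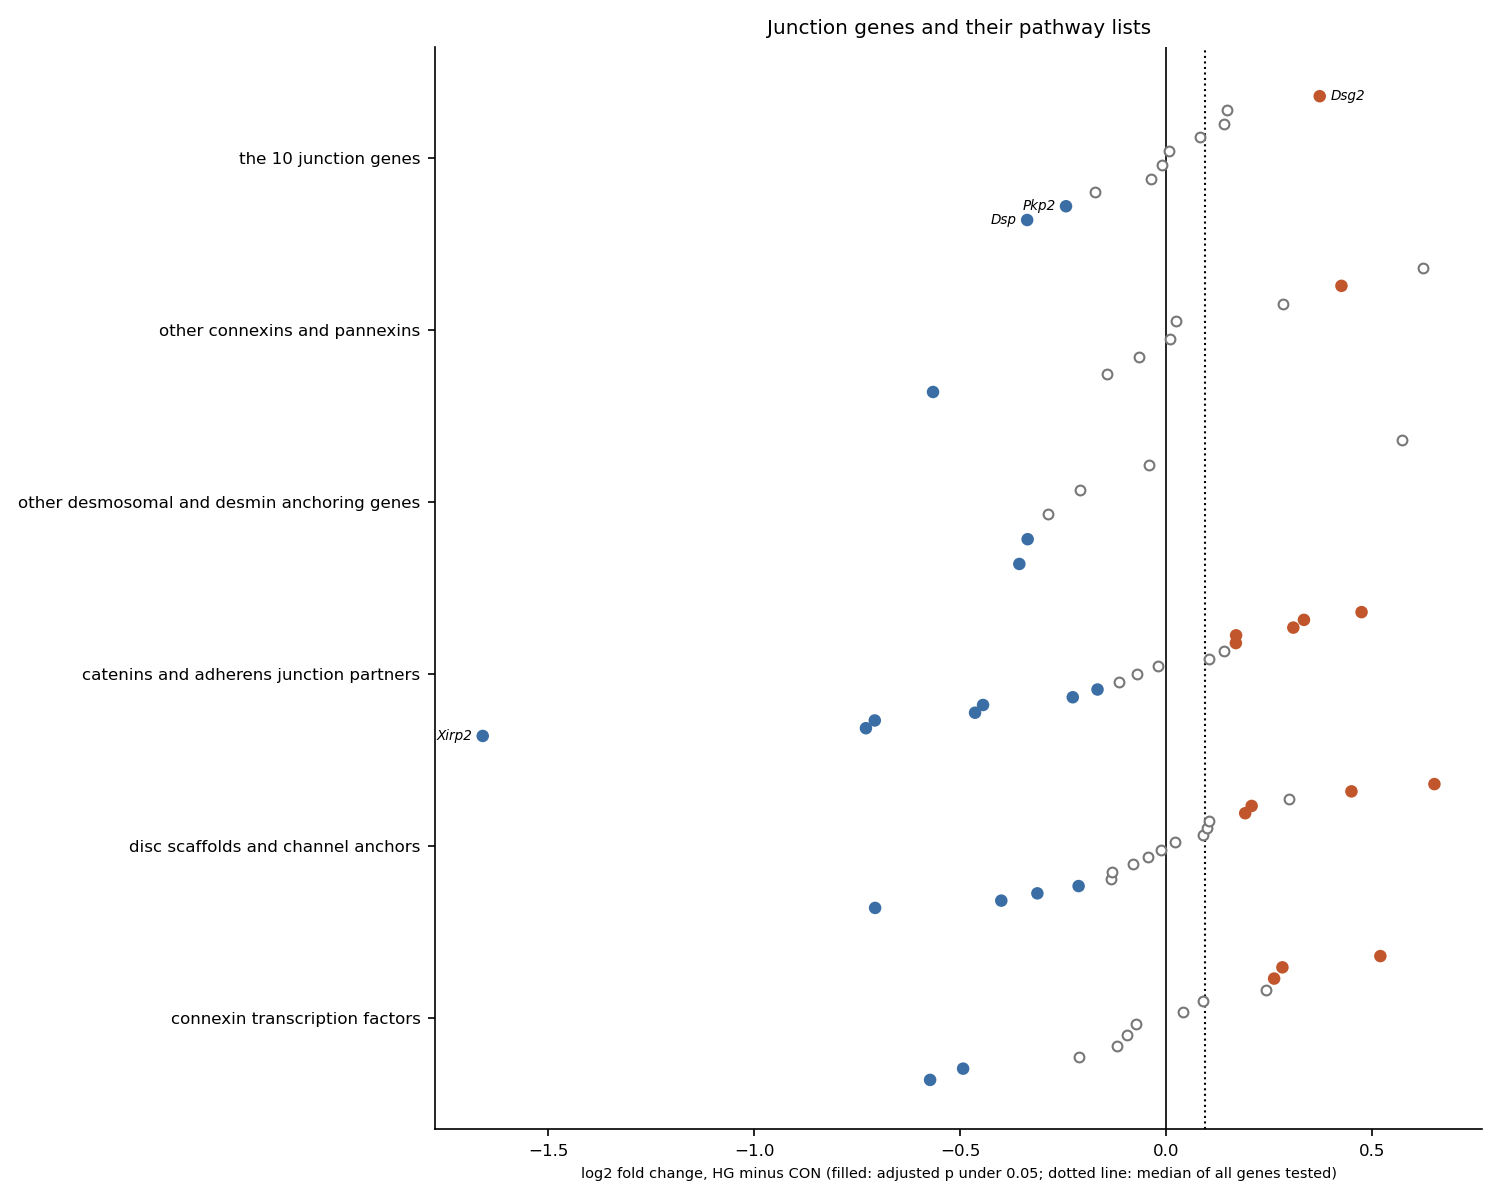
Log2 fold change (HG minus CON) of the 10 junction genes and of every tested gene in 5 related lists, with genes at an adjusted p under 0.05 filled (orange higher, blue lower), called junction genes and Xirp2 named, and the median of all genes, 0.09, as a dotted line. Xirp2 lies at −1.66, beyond all others, and the catenin list has called genes on both sides.

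The deposited gene ontology annotation gave a wider view of the same structures. The term intercalated disc held 55 tested genes, 9 of them among the 10, with 12 higher, 17 lower and 26 not called. Among the largest changes in it were those of Pak1 (0.81, adjusted p = 0.000464), Adra1b (0.73, adjusted p = 0.00995) and Fhod1 (0.41, adjusted p = 0.00265) upward and of Scn1a (−0.99, adjusted p = 7.89e-05) and Slc4a1 (−0.56, adjusted p = 0.00425) downward. Slc4a1 is also a red cell gene. With median-of-ratios factors 6 genes of the term were higher and 26 lower. Over all genes tested 28.4% were higher and 11.8% lower as deposited, and 15.6% and 17.5% with median-of-ratios factors.

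The narrower terms also held genes of both directions. Fascia adherens had 2 higher and 5 lower of 13, with Actn1 (0.32, adjusted p = 0.00159) and Ctnnb1 (beta-catenin, 0.17, adjusted p = 0.00254, and 0.161 with median-of-ratios factors) higher and Nrap, Ctnna3 (−0.46, adjusted p = 0.00192) and Dsp lower. Gap junction had 2 higher and 3 lower of 17, with Dbn1 (0.36, adjusted p = 0.000181) and Panx1 higher and Ccn3 (−0.94, adjusted p = 0.0292, and up to 0.0685 with single libraries left out), Gja3 and Des lower. Desmosome had 4 higher and 3 lower of 15, with Krt80 (0.70, adjusted p = 0.0188), Dsg2 and Pnn (0.32, adjusted p = 0.0124, and 0.0533 with median-of-ratios factors) higher and Dsp, Pkp2 and B4galt1 (−0.16, adjusted p = 0.0131) lower. With median-of-ratios factors the counts were 1 higher and 8 lower for fascia adherens, 2 higher and 4 lower for gap junction, and 2 higher and 5 lower for desmosome, where the balance of the directions was reversed. The lists and terms share genes, so that their counts are not independent.

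Several of the 10 genes are also read in cells other than cardiomyocytes, and markers of such cells were measured in the same libraries. Of 6 ventricular markers 2 were higher and 3 lower, and their sum was 10660 to 11610 FPKM in CON and 8123 to 9604 FPKM in HG. Arterial endothelial markers, where Gja5 is also expressed, had 4 of 7 higher and 0 lower, with sums of 65.8 to 68.4 FPKM in CON and 68.9 to 85.8 FPKM in HG. Conduction system markers had 3 of 8 higher and 0 lower, but 0 of 8 called with median-of-ratios factors, with sums of 34.5 to 40.9 FPKM and 38.9 to 45.0 FPKM. Over all genes tested 28.4% were higher and 11.8% lower, and 15.6% and 17.5% with median-of-ratios factors. These lists hold few genes, and whether such cells had a part in the Gja5 values was not tested.

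Epicardial markers, among them the keratins that bind Dsp in other epithelia, had 1 of 9 higher and 1 lower, with sums of 26.4 to 34.3 FPKM in CON and 28.3 to 35.5 FPKM in HG. Other epithelial markers summed to under 1 FPKM in every library. Of 9 endothelial markers 2 were higher and 0 lower (1 higher and 2 lower with median-of-ratios factors), of 8 smooth muscle markers 3 were higher and 1 lower, of 8 fibroblast markers 2 were higher and 4 lower, of 8 macrophage markers 3 were higher and 1 lower, of 10 red cell markers 2 were higher and 7 lower, and of 7 liver markers 0 were higher and 4 lower. The part of these cells in the values of the 10 genes was not tested.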

How the data were processed

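Messenger RNA of 10 fetal hearts was sequenced from stranded libraries. Per the submitters' processing notes, fastp, HISAT2, HTSeq and R 3.2.0 were used with the build mRatBN7.2; roles and settings are not given in the sources used here. The authors deposited FPKM per gene and library. The study's methods speak of pooled RNA of the 10 samples, but the table holds 10 different libraries, and the values of no pair of libraries of a group agreed within counting noise. Whole reads could be recovered from the steps between FPKM values for 100% of genes (tolerance 0.05 reads).

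Each gene whose mean reached 0.1 FPKM entered the fit, on the scale log2(FPKM + 0.1), by limma 3.58.1 in R 4.3.3 (trend on expression, no covariate, Benjamini-Hochberg adjustment over all genes tested). A fold change on this scale understates the change of low genes. The study's own definition of changed genes, a q under 0.05 and a fold change beyond 2, was used beside it. Ratios and values relative to the cardiomyocyte genes were tested by exact permutation, two-sided, in scipy 1.17.1. The limma step was tested on simulated data in which few genes changed. That setting differs from these data, so that it does not test the scaling of the libraries. Figures were drawn with matplotlib 3.10.9.

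The 10 genes, the lists and the tests were chosen with earlier results of these data known. All 10 genes are named; from each pathway list and ontology term, up to 3 genes with the largest change in each direction at an adjusted p under 0.05 are named, except some that are not reported here. Gja4, Nkx2-5 and the markers Nppa, Bmp10, Nr2f2, Myl7 and Sln are named beyond this rule, with their values known. No batch is named in the labels. Alternatives were pseudocounts of 1 and 0.01, no filter and a filter at 1 FPKM, a scaling without the hemoglobin genes, quantile normalization, median-of-ratios factors, a block for the replicate number, array weights, a fit with no trend, voom on the recovered reads (which called 5960 genes) and each library left out in turn. Correlations between same-numbered CON and HG libraries ran from −0.126 to 0.108, so that the numbers were not taken to pair samples. Promoter sequences are from RefSeq (GRCr8); no coordinates of that assembly were joined to the expression table.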

Additional observations from a re-analysis of the deposited data

Results flagged for a closer look

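Dsc2 in HG replicate 2 stood away from the other libraries of its group. It measured 7.05 FPKM there and 8.13 to 8.46 FPKM in the other 4 HG libraries, a gap of 0.764 of the whole range, above Dixon's critical value of 0.71 for 5 samples. Of 32 groups of 5 values examined, 1 had such a library, and at this level chance gives one in about 5% of groups.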

How the results depend on the processing

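Dsp, Pkp2 and Dsg2 were called in the same direction under every alternative run. The count of called genes among the 10 was 5 with median-of-ratios factors, where Gja1 and Jup joined with lower values. Over all genes 4822 of 14542 were called under that scaling. With the hemoglobin genes left out the count was also 5, where Dsc2 and Cdh2 joined with higher values. Over all genes 6158 of 14531 were then called. When single libraries were left out the count among the 10 ran from 3 to 4, and that over all genes from 5059 to 5620. Without CON replicate 3, the library with liver messages, the count among the 10 was 3. With the replicate block it was also 3, and over all genes it was 5096 against 5836; no same-numbered pair of libraries matched best with its own number. For the ratios the replicate block leaves a smallest exact p of 0.0625, so that neither Dsp to Gja1 (log2 difference −0.30, adjusted p = 0.188) nor Dsc2 to Dsg2 (−0.23, adjusted p = 0.188) could pass. The log2 ratio of Tjp1 to Cdh2 differed by −0.092 to −0.055 when single libraries were left out, and passed only without HG replicate 5 (−0.092, exact permutation p = 0.0159, adjusted p = 0.0317). Depth limits Dsc2 and Gjc1 most, with 569 and 944 reads in their lowest library; intervals cover counting error and the spread of these libraries only.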
